A study of Rattus norvegicus with 98 samples.

Results

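The windows described here are 1 kb stretches of the Rn5 rat genome that carried H3K27ac in locus coeruleus (LC) tissue and in few other libraries. A window was called occupied in a library when that library's peaks covered at least 500 bp of it. Windows on chromosomes 1 to 20 were selected on these measured values: they were occupied in at least 3 of the 4 LC libraries and in at most 5 of the 88 libraries from other regions. The rule kept 1527 windows, 0.537% of the 284178 windows occupied in at least 1 of 92 libraries and 2.74% of the 55787 windows occupied in at least 3 LC libraries. The label under which they were grouped, windows restricted to LC, does not hold in these data. Nearly all of them were occupied in the periaqueductal grey (PAG) as well, and they are therefore called LC-rule windows below.

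Male Long-Evans rats, 2 months old, drank either plain water (Sham) or water with fluoxetine at 18 mg/kg/day for 6 weeks (FT). Brain regions were punched from frozen sections, the tissue of several animals was pooled per replicate, and H3K27ac chromatin immunoprecipitation and sequencing was run with 2 replicates per treatment in 21 of the regions. There were fewer libraries for arc (3), MPOA (3) and PVN (2), and the 2 HB libraries were left out by the rule. Each library is thus a pool of punched tissue with all its cell types, and a signal from few cells cannot be told apart from a weak signal in many. LC had 4 libraries, Sham replicates 1 and 2 and FT replicates 1 and 2.

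H3K27ac is an acetylated lysine of histone H3 that marks active promoters and enhancers. Enhancers are known to differ between cell types far more than promoters do. LC is a small nucleus of the dorsal pons and the main source of noradrenaline in the forebrain. PAG, the grey matter around the cerebral aqueduct of the midbrain, takes part in defence and pain control and borders the LC at its caudal end. The raphe nuclei (Raphe) hold the serotonin neurons on which fluoxetine acts by blocking the serotonin transporter. Snt is the nucleus of the solitary tract of the medulla, which also has noradrenaline neurons. No gene annotation on the Rn5 build was used here, so neither the marker genes of LC neurons nor the genes near the windows could be looked up, and no Rn5 sequence is shown.

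The region labels were checked against the peak lists as a whole. The Jaccard index of a pair of libraries, their shared windows as a fraction of the windows occupied in one or the other, averaged 0.626 over the 6 pairs of LC libraries (0.553 to 0.708). The most similar library of each LC library was another LC library. The closest library from another region was PAG Sham replicate 1 for LC Sham replicates 1 (0.643) and 2 (0.58), Raphe FT replicate 1 for LC FT replicate 1 (0.699) and Raphe FT replicate 2 for LC FT replicate 2 (0.627). For the FT libraries these values came close to those within LC. By region, the mean index with LC was 0.581 for Raphe, 0.549 for PAG, 0.533 for VTA, 0.523 for Snt and 0.488 or lower elsewhere. Raphe Sham replicate 1 went against its label, since its closest library was Snt Sham replicate 1 (0.78) and its highest index with another Raphe library was 0.719. List length differed as well, with 76167 windows occupied in LC Sham replicate 1, 78131 in FT replicate 1, 50699 in Sham replicate 2 and 57791 in FT replicate 2.

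Within LC, the LC-rule windows were thinly replicated. Of the 1527 windows, 1518 were occupied in Sham replicate 1, 1403 in FT replicate 1, 1281 in Sham replicate 2 and 836 in FT replicate 2. All 4 LC libraries shared 457 windows (29.9%), whereas 72.3% of the 55787 windows in at least 3 LC libraries were shared by all 4. The missing library was FT replicate 2 in 691 windows (45.3%, against 8.01% of those 55787 windows), Sham replicate 2 in 246 (16.1% against 17.7%), FT replicate 1 in 124 (8.12% against 1.15%) and Sham replicate 1 in 9 (0.589% against 0.828%). FT libraries were thus the missing ones more often than in LC windows at large, and the part of list length or treatment in this was not tested. A further 2452 windows were occupied in 2 LC libraries with at most 5 others and stayed just outside the rule.

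Outside LC, most of the occupancy fell in PAG. The LC-rule windows were occupied in PAG Sham replicate 1 (1360 windows, 89.1%), Sham replicate 2 (1101, 72.1%), FT replicate 1 (1396, 91.4%) and FT replicate 2 (1385, 90.7%). The mean over PAG libraries was 85.8% ± 9.2 (SD, n = 4), and that over LC libraries, on which the windows were chosen, was 82.5% ± 19.5 (SD, n = 4). All 4 PAG libraries held 1078 of the windows (70.6%), and 3 or 4 PAG libraries held 1340 (87.8%). This last share was not far above the 76.2% of all windows in at least 3 LC libraries. The contrast lay in the other regions. The shares for 3 or 4 Raphe libraries and 3 or 4 Snt libraries were 85.6% and 81.5% of all such LC windows, but 0 and 5 of the 1527 LC-rule windows. The cap of 5 libraries keeps most regions out by construction, but it does not say which region fills the places. PAG, with 4 of the 88 other libraries, filled 5242 of 6551 window-by-library places (80.0%), and Raphe filled 816 (12.5%).

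**Figure D1:**
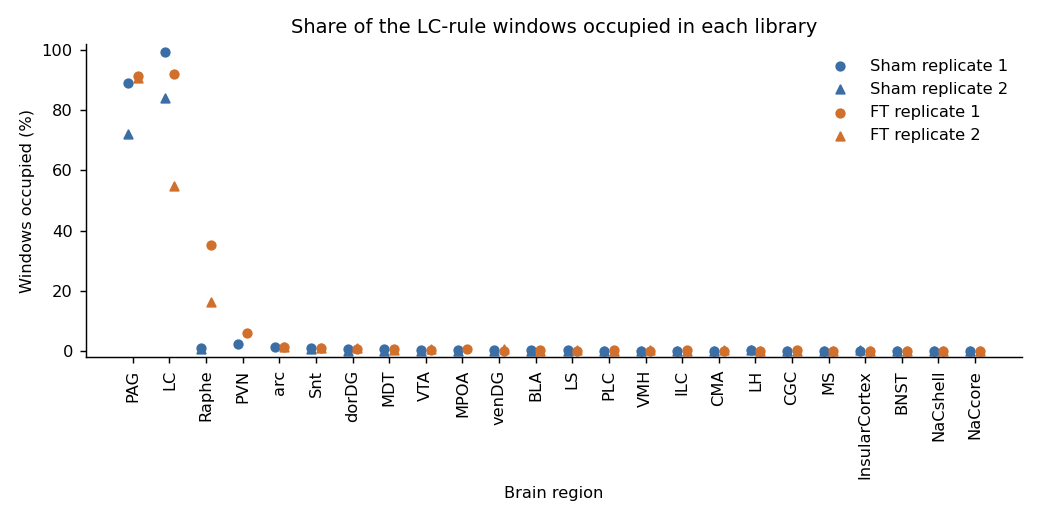
Share of the 1527 LC-rule windows occupied in each library (y axis, percent), by brain region (x axis, ordered by mean), with treatment as colour and replicate number as symbol. PAG libraries lie between 72.1% and 91.4%, the Raphe FT libraries at 35.3% and 16.2%, and the Raphe Sham libraries at 1.11% and 0.786%.

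Few windows approached restriction to LC. Only 10 were occupied in 0 other libraries, 25 in 1, 47 in 2, 143 in 3, 507 in 4 and 795 in the permitted maximum of 5. Of the 732 windows with at most 4 other libraries, PAG again held most, with 108 of the 143 windows at 3 and 464 of the 507 at 4 occupied in 3 or 4 PAG libraries. Outside LC and PAG together, 521 windows (34.1%) were occupied in no library and 838 (54.9%) in 1. The number of windows with exactly 6 other libraries, the first step outside the rule, was 1306.

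**Figure D2:**
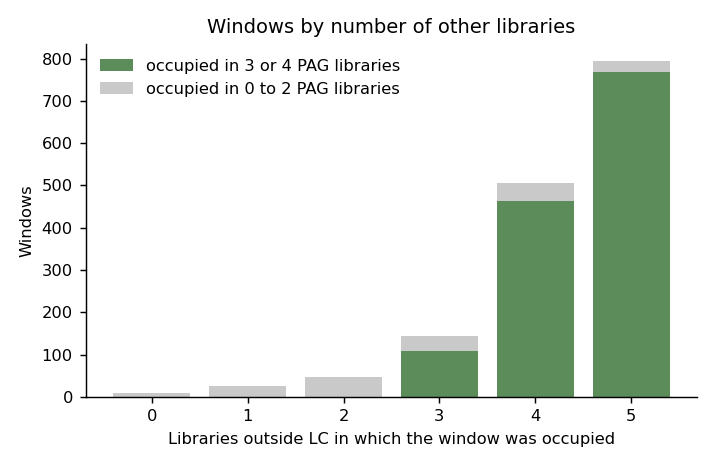
Number of LC-rule windows (y axis) by the number of libraries outside LC in which they were occupied (x axis), split by occupancy in PAG. The bars rise from 10 windows at 0 other libraries to 795 at 5, and from 3 upwards most windows were occupied in 3 or 4 PAG libraries. Below 3 other libraries, occupancy in 3 PAG libraries is not possible by construction.

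The windows with the widest LC signal show the same pattern. By the naming rule, the loci with the most windows were taken, which were pairs of adjoining windows here, ordered by summed LC coverage. The first, chr13:104080001-104082000, was covered over 2000 bp in LC Sham replicates 1 and 2 and FT replicate 1, over 1671 bp in LC FT replicate 2, and over 2000 bp in all 4 PAG libraries. The second, chr1:212295001-212297000, was covered over 2000 bp in the same 3 LC libraries, over 1559 bp in LC FT replicate 2 and again over 2000 bp in all 4 PAG libraries. Both were also occupied in Raphe FT replicate 1 and in no other library. The third, chr15:51376001-51378000, was covered over 2000, 1599, 2000 and 1800 bp in LC Sham replicates 1 and 2 and FT replicates 1 and 2, and over 2000, 1177, 2000 and 2000 bp in the PAG libraries in the same order, and its further library was Raphe FT replicate 2. The other 5 lay at chr4:200772001-200774000, chr19:36570001-36572000, chr18:28633001-28635000, chr10:4037001-4039000 and chr15:11335001-11337000. Both windows of each were occupied in all 4 LC and all 4 PAG libraries, which leaves a window 1 further place under the cap. Only Raphe FT libraries took that place. At chr19:36570001-36572000 it was Raphe FT replicate 1 in 1 window and Raphe FT replicate 2 in the other.

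No locus was occupied in all 4 LC libraries and in 0 others, so that part of the naming rule named none. The 10 windows with 0 other libraries, which were looked at after their values were seen, fell in 9 loci and each lacked 1 LC library: FT replicate 2 in 6 windows, Sham replicate 2 in 3 and FT replicate 1 in 1. Not a single base of 8 of them was covered in any PAG library. One was chr5:120566001-120567000, covered over 956, 744, 644 and 0 bp in LC Sham replicates 1 and 2 and FT replicates 1 and 2. Another was the pair of windows at chr2:234538001-234540000, with 1400, 0, 1700 and 1300 bp in the same order. At chr1:105518001-105519000 the values were 750, 575, 577 and 0 bp. These covered lengths sit close to the 500 bp limit in several libraries.

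Just inside the rule, with 5 other libraries, the first window by position was chr1:6436001-6437000. It was covered over 850, 875, 1000 and 459 bp in LC Sham replicates 1 and 2 and FT replicates 1 and 2, was occupied in all 4 PAG libraries, and was occupied in Raphe FT replicate 2. The next were chr1:9491001-9492000, empty in LC Sham replicate 2, and chr1:9497001-9498000, empty in LC FT replicate 2. Just outside, with 6, chr1:8315001-8316000 was covered over 1000, 825, 1000 and 1000 bp in the LC libraries and over 1000 bp in each PAG library. It and the next ones, chr1:9633001-9634000 and chr1:9640001-9641000, were occupied in both Raphe FT libraries and in no Raphe Sham library. All 6 windows were therefore PAG windows too, and the second Raphe FT library put the outer ones over the cap. The inner ones were also occupied in only 3 LC libraries each, and the outer ones in all 4.

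The peaks over the LC-rule windows were of middle to lower rank in LC, below the middle in all but Sham replicate 1, and of higher rank in PAG. Peaks were ranked by the filter score within each library's own list, so that 50 is the middle of the list. The median percentile was 55.1 and 42.7 in LC Sham replicates 1 and 2 and 37.3 and 29.4 in LC FT replicates 1 and 2. For PAG the medians were 64.5 and 57.3 in Sham and 68.6 and 69.8 in FT. At the median, each PAG library thus ranked these peaks above each LC library. For the strength of the calls the ranges overlapped. The median −log10 p was 16.8, 8.39, 9.21 and 6.58 in LC Sham replicates 1 and 2 and FT replicates 1 and 2, and 26.2, 13.4, 39.7 and 38.7 in the PAG libraries, so that PAG Sham replicate 2 lay below LC Sham replicate 1. In the same order, the medians of the whole lists were 13.8, 10.2, 13.9 and 11.4 in LC and 14.4, 10.6, 16.8 and 15.2 in PAG. The peaks over the windows were 1300 to 1900 bp wide at the median in LC and 1700 to 2200 bp in PAG. For the whole lists these medians were 1500 to 1700 bp and 1500 to 1800 bp. Among the 391 LC-rule windows occupied in all 4 LC and all 4 PAG libraries, the mean percentile was higher in PAG in 386 (98.7%). The same share over all windows occupied in these libraries was not computed, so it is not known whether it is particular to LC-rule windows. These are descriptions, since the LC and the other lists entered the rule.

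**Figure D3:**
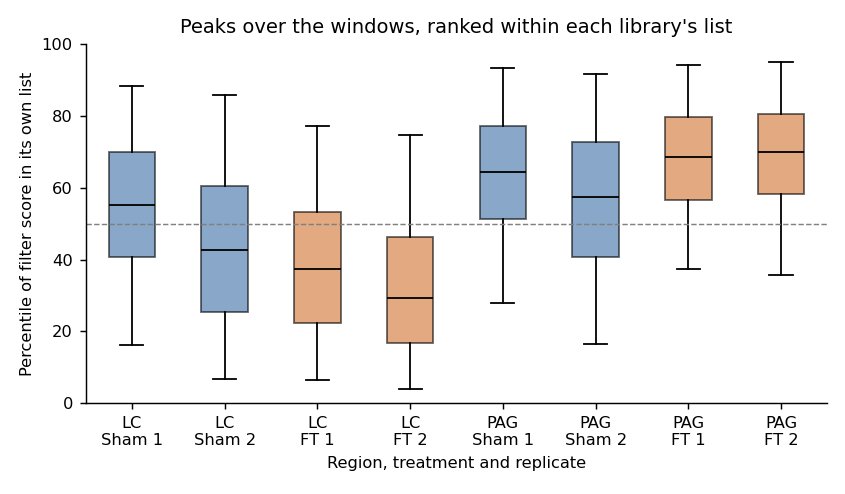
Percentile of the filter score within its own list (y axis, 50 is the list median) of the peaks over LC-rule windows, for each LC and PAG library (x axis). Boxes show quartiles and medians and whiskers the 5th and 95th percentiles. LC medians run from 29.4 to 55.1 and PAG medians from 57.3 to 69.8.

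Coverage was centred on the windows in both regions. The mean covered length at the windows was 760 bp in LC Sham, 589 bp in LC FT, 722 bp in PAG Sham and 849 bp in PAG FT. It dropped to 93.1 and 71.8 bp in LC Sham and FT 2 kb further along the chromosome, and to 108 and 137 bp in PAG. In Raphe FT the mean was 300 bp at the windows, whereas in Raphe Sham it was 32 bp there and 76.9 bp 1 kb before them. Snt, with 24.5 bp in Sham and 21.2 bp in FT at the windows, had low values at the windows as Raphe Sham did. The maximum in LC is set by the rule, which asks for 500 bp in 3 LC libraries, and low values elsewhere are favoured by its cap on other libraries, so the profiles are descriptions. Of the 1402 loci, 1277 (91.1%) were single windows, 125 were pairs and none was longer. The cap also cuts loci short, since 613 LC-rule windows (40.1%) adjoined a window occupied in at least 3 LC libraries and in over 5 others.

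**Figure D4:**
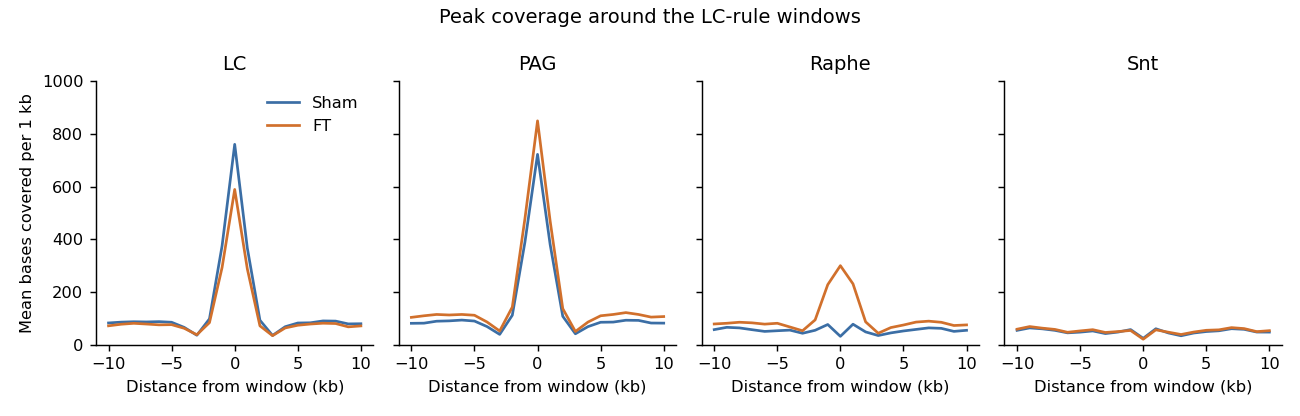
Mean number of bases covered by peaks per 1 kb window (y axis) against the distance from the LC-rule windows (x axis, kb), for LC, PAG, Raphe and Snt, with Sham and FT libraries averaged separately. A centred maximum is present in LC, PAG and Raphe FT (760, 849 and 300 bp at most) and missing in Raphe Sham and Snt.

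The windows lay apart from the acetylated elements that most regions share. The median distance to the nearest window occupied in at least 44 of the 88 other libraries was 20 kb (quartiles 8 and 63.5 kb). It was 10 kb (quartiles 1 and 31 kb) for the 12009 other windows that were in at least 3 LC libraries and in fewer than 44 others. Of the LC-rule windows, 81 (5.3%) directly adjoined such a shared window, compared with 25.3% of the other LC windows. The rule leaves out windows occupied in many libraries and so bears on this distance, and no test was made. As to chromosomes, the LC-rule windows made up between 1.85% (chromosome 17) and 3.79% (chromosome 9) of the windows in at least 3 LC libraries, so they were found on every one of the 20 chromosomes. Neighbouring loci were a median of 617 kb apart, and 67 of 1382 neighbouring pairs lay within 10 kb.

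Whether the pattern recurs in libraries that did not choose the windows was tested by splitting the libraries. Windows were selected in one part of the libraries (both LC libraries occupied, at most 2 others) and measured in the rest, for the 21 regions with 4 libraries. The occupancy in LC was ranked among regions, which gives an exact one-sided permutation test of the region label whose smallest possible p is 0.0476. With 3728 windows chosen in Sham, 69% were occupied in LC FT replicate 1 and 45.1% in LC FT replicate 2, a mean of 57.1%, against 88.2% in PAG and 49% in Raphe. With 320 windows chosen in FT, 83.8% were occupied in LC Sham replicate 1 and 46.2% in replicate 2, a mean of 65%, against 69.1% in PAG and 3.75% in Snt, the third region. With 1642 windows chosen in replicate 1, the LC mean in replicate 2 was 31.8%, against 70.7% in PAG. With 656 windows chosen in replicate 2, the LC mean in replicate 1 was 80.5%, against 87.7% in PAG. PAG was first and LC second in each of the 4 splits, with a p of 0.0952 (exact permutation, 21 regions) each time and after adjustment over the 4. The median of the 20 regions other than LC was at most 1.29%. In these splits, windows chosen in LC were found again in LC more often than in 19 of the 20 other regions, and more often still in PAG. The choice asked for LC and allowed at most 2 other libraries, and the measured libraries come from the same regions. High values in LC and low values in most other regions are thus favoured by the choice. The rank of LC cannot show restriction to LC.

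**Figure D5:**
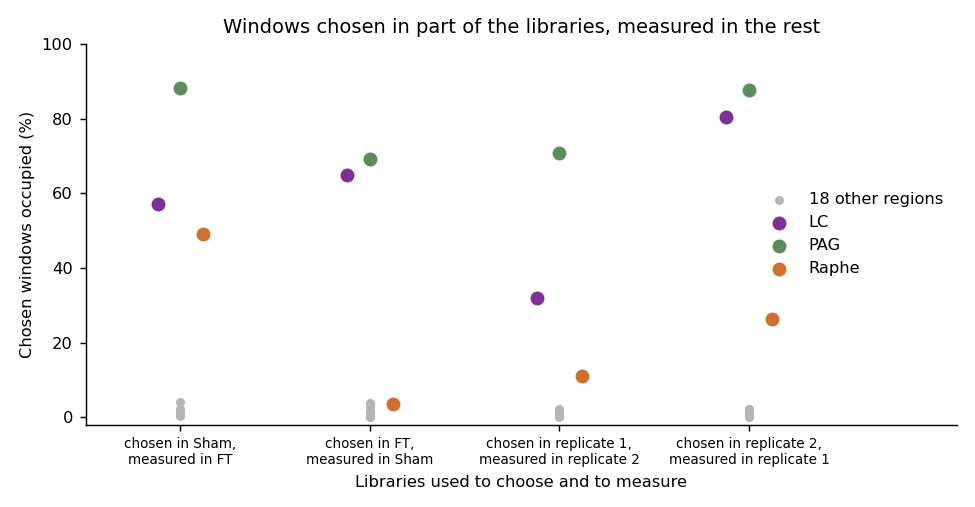
Share of windows occupied (y axis, percent) in libraries that did not choose them, for 4 ways of splitting the libraries (x axis), with LC, PAG and Raphe in colour and the 18 other regions in grey. PAG is highest in every split (69.1% to 88.2%) and LC second (31.8% to 80.5%).

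Brainstem regions differed from the others mainly through PAG and Raphe FT. The LC-rule windows were occupied at a mean of 25.1% ± 40.9 (SD, n = 4 regions) in VTA, PAG, Raphe and Snt and of 0.486% ± 0.944 (SD, n = 19 regions) in the other regions. The difference was 24.6 percentage points, 4.42 without PAG and 0.283 without PAG and the Raphe FT libraries. The cap of the rule used these occupancies, so no p is given for them. On windows chosen in one part of the libraries and measured in the rest, the difference over 20 regions was 33.7, 18.9, 20.7 and 28.5 points for windows chosen in Sham, in FT, in replicate 1 and in replicate 2 (exact two-sided permutation over 4845 choices of regions, adjusted p = 0.0111, 0.000824, 0.00165 and 0.0022). The SD over the 4 brainstem regions was 42, 32.8, 33.3 and 40.6 points in the same order. The splits were applied to this comparison after seeing the data, and they share libraries. Their choice allowed at most 2 other libraries of these same regions, which favours low values in most regions. The split therefore does not free the comparison from the cap. Without PAG and Raphe the difference was 0.0528, 2.49, 1.05 and 0.848 points (p = 0.915, 0.00654, 0.0261 and 0.0523, exact permutation). In Snt the windows were occupied at 1.11%, 0.851%, 0.917% and 0.917% in Sham replicates 1 and 2 and FT replicates 1 and 2, and in VTA at 0.196% to 0.655%. Among forebrain libraries the highest values were in PVN, a hypothalamic nucleus, with 94 windows in the FT library (6.16%) and 34 in the Sham library (2.23%). The 78 libraries of the 20 regions outside LC, PAG, Raphe and PVN held 0 to 21 windows each, with a median of 2.

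Raphe was the region in which the LC-rule windows differed most between treatments. They were occupied in Raphe FT replicate 1 (539 windows, 35.3%) and FT replicate 2 (248, 16.2%), and in Raphe Sham replicate 1 (17, 1.11%) and Sham replicate 2 (12, 0.786%). The groups did not overlap, at 25.8% ± 13.5 in FT and 0.95% ± 0.232 in Sham (SD, n = 2), but the smallest two-sided p that 2 against 2 libraries allow is 0.33. Of the 783 LC-rule windows occupied in at least 1 Raphe library, 756 (96.6%) were in FT libraries alone and 22 (2.81%) in Sham libraries alone. Of all 105663 windows occupied in at least 1 Raphe library these shares were 17.6% and 10.3%. The cap of the rule limits these counts, because a window with 4 PAG libraries may have 1 further library, and 709 of the 1078 windows in all 4 PAG libraries had one. It was a Raphe library in 646 of the 709 (91.1%), and Raphe FT replicate 1 in 444. In libraries that did not choose the windows the order was the same. Of the 1642 windows chosen in replicate 1, Raphe FT replicate 2 occupied 335 (20.4%) and Raphe Sham replicate 2 occupied 31 (1.89%). Of the 656 chosen in replicate 2, Raphe FT replicate 1 occupied 323 (49.2%) and Raphe Sham replicate 1 occupied 23 (3.51%).

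A wider cap of 10 other libraries, chosen after seeing the data, showed the Raphe difference with less of that limit. Of the 4392 windows in 3 or 4 LC, in 3 or 4 PAG and in at most 10 other libraries, 3234 (73.6%) were occupied in Raphe FT replicate 1 and 2709 (61.7%) in FT replicate 2. In Raphe Sham replicates 1 and 2 the numbers were 519 (11.8%) and 336 (7.65%). Both FT libraries and no Sham library held 1773 of them (40.4%), and both Sham and no FT library held 1 (0.0228%). Of the 105663 windows occupied in at least 1 Raphe library, these shares were 5.29% and 1.89%. The 4392 windows were counted whether or not a Raphe library occupied them, so the bases of these shares differ. The whole lists of the Raphe libraries moved in the same direction: the mean Jaccard index with LC was 0.599 and 0.619 in FT replicates 1 and 2 and 0.556 and 0.548 in Sham, and with PAG 0.473 and 0.483 against 0.395 and 0.39. With Snt it was lower in FT, at 0.681 and 0.66 against 0.759 and 0.697. Whether treatment or the tissue taken in the punches accounts for this was not tested, and with 1 pool per library they cannot be told apart.

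The question of fluoxetine was also asked over all other regions. Across the 20 regions outside LC with 2 libraries per treatment, FT libraries occupied 6.12% of the LC-rule windows and Sham libraries 4.27%, a mean difference of 1.85 percentage points that was above 0 in 15 regions and below 0 in 5. The median difference was 0.0982 points. These values entered the cap of the rule too, so no p is given for them. Raphe contributed 24.8 points and PAG 10.5, PAG at 80.6% ± 12 in Sham and 91.1% ± 0.509 in FT (SD, n = 2). Without both regions the mean difference was 0.0928 points. Scaled to list length, as windows per 1000 windows occupied in the library, the values were 1.27 in FT and 1.2 in Sham, a difference of 0.0677. For windows chosen in replicate 1 and measured in replicate 2, FT exceeded Sham by 2.61 points (18 regions above 0 and 2 below, sign-flip permutation, 100000 resamples, two-sided, adjusted p = 0.00032). With equal-size lists this was 1.29 points (p = 0.464, permutation). For windows chosen in replicate 2 and measured in replicate 1 it was 2.19 points (9 regions above 0 and 8 below, adjusted p = 0.814, permutation). The threshold was thus passed in the measurement of replicate 2 on full lists, and whether the replicates differ was not tested. By the study's methods the punches of the regions come from the same pooled animals, so the region differences are not independent and these p-values are too small for a statement on animals.

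In LC itself the direction was the opposite one. The LC values entered the rule, and 45.3% of the chosen windows lacked FT replicate 2, so the values below only describe the choice. In percent of windows occupied, the measure used for the other regions, LC stood at 91.7% ± 11 in Sham and 73.3% ± 26.3 in FT (SD, n = 2). The share of window length covered in the LC-rule windows was 85.4% and 66.6% in Sham replicates 1 and 2 and 72.2% and 45.5% in FT replicates 1 and 2. The means were 76% ± 13.3 in Sham and 58.9% ± 18.9 in FT (SD, n = 2), a difference of -17.1 percentage points. FT was lower than Sham within each replicate number, with differences of -13.2 points in replicate 1 and -21.1 in replicate 2, while the groups as a whole overlapped, and 0.33 is again the smallest p possible. Over all 55787 windows in at least 3 LC libraries, FT was higher by 3.7 points (81.5% ± 11.6 in Sham, 85.2% ± 6.18 in FT). There the within-number differences were -0.165 and 7.56 points. In the LC-rule windows the unpaired difference was -3.76 points without FT replicate 2, -30.5 without FT replicate 1, -7.72 without Sham replicate 1 and -26.5 without Sham replicate 2.

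Compared with the same rule applied to each of the 21 regions with 4 libraries, LC stood sixth by number of windows. PAG had 9114 windows, dorDG 8311, Snt 1916 and Raphe 430. LC had the lowest share of windows occupied in no other library at all (0.655%), compared with 20.9% in PAG, 6.58% in Snt and 3.02% in Raphe. A partner region that held most of the windows was found for LC (PAG, 85.8% of windows per library) and for venDG (dorDG, 80.1%). For Raphe the most frequent partner was Snt (49.9%), and for Snt it was Raphe (29%). The relation of LC to PAG was one-sided in numbers. Of the LC-rule windows, 1326 also met the rule applied to PAG, which was 86.8% of the LC set and 14.5% of the PAG set. The PAG set was occupied in LC Sham replicate 1 at 60.1%, in FT replicate 1 at 32.8%, in Sham replicate 2 at 24.7% and in FT replicate 2 at 12.7%, the order of the LC libraries seen in the LC-rule windows. In Raphe it was occupied at 23.3% and 14.3% in FT and 0.922% and 0.867% in Sham.

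The windows without PAG were a small set. The 100 LC-rule windows (6.55%) occupied in no PAG library were occupied in LC Sham replicate 1 in all 100 cases, in LC FT replicate 1 in 94, in LC Sham replicate 2 in 70 and in LC FT replicate 2 in 42. In all 4 LC libraries there were 6 of them (6%), against 391 of the 1078 windows in all 4 PAG libraries (36.3%). Outside LC they were found in PVN FT (57 windows), PVN Sham (17), at least 1 arc library (28), at least 1 Snt library (22) and at least 1 Raphe library (18). PVN and arc are hypothalamic nuclei, and 59 of the 100 windows were in at least 1 PVN library. The same shares were not computed for LC windows at large, and these regions differ in their number of libraries. A window without PAG also leaves every place under the cap to other regions. The counts therefore cannot show whether a link to the hypothalamus is particular to these windows.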

How the data were processed

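H3K27ac peak lists of 94 libraries were used, and the 92 outside HB entered the rule. According to the study's methods and the labels, the authors aligned reads to Rn5 and called peaks per library with DFilter, not on pooled replicates. BWA is named in the submitters' processing notes. The deposited lists give a −log10 p-value per peak, a filter score and a rounded tag count score, both used at most to rank peaks within a list, and a false discovery rate as a percent, 0 throughout and not used. Outside HB, lists held 19378 to 54505 peaks. They hold no reads, so the depth behind each value is unknown, intervals for counting error are not given, and longer lists cannot be separated from deeper libraries. The 4 input libraries were not analysed here.

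Starts were read as counting from 0, and positions are printed counting from 1. Coverage per 1 kb window, the rule and the permutation tests were computed in Python 3.11.15 (numpy 2.4.6, pandas 2.3.3) and tested on simulated data. The score percentile is that of the peak with the largest overlap. Named loci were the 8 with the most windows (ties by LC coverage), the 6 with the highest tag count percentile among those in all 4 LC and 0 other libraries, and the 3 windows just inside and outside. The members, lists and tests were chosen with earlier results of these data known. Tests use regions as units. The regions of a replicate share pooled animals, so they are not independent, and p-values bear on these pools, not on animals. Planned tests of LC-rule windows outside LC were replaced by tests on windows chosen in other libraries, added after seeing the data, because the cap used the same values. Those windows were chosen with at most 2 other libraries of the same regions, so a cap still bears on them. Differential acetylation on reads, as the study ran it, could not be fitted to peak lists.

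Alternatives were 250 and 750 bp of coverage, a −log10 p of at least 6, equal-size lists (the 18723 best-scoring peaks on chromosomes 1 to 20 of each library), other caps on libraries, 5 kb windows, HB kept, scaling to list length, left-out libraries and the replicate block. The replicate number pairs Sham and FT libraries, which the methods say were processed in parallel. In LC, replicate 1 minus replicate 2 coverage in Sham and in FT correlated at 0.05 over windows in at least 3 LC libraries and at -0.12 over the 1527 LC-rule windows. Both sets ask for at least 3 LC libraries, so at most 1 LC library can be unoccupied in a window. This choice holds the correlation down, so these values cannot tell whether the replicate numbers pair the libraries.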

Additional observations from a re-analysis of the deposited data

Results flagged for a closer look

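PAG Sham replicate 2 lay apart from the other PAG libraries in the number of LC-rule windows it occupied, at 1101 against 1360 to 1396. Its gap to the nearest library was 0.878 of the range of the 4, above Dixon's critical value of 0.829. The comparison was made in 5 regions with 4 libraries, and chance alone marks about 1 group in 20. Its list was also the shortest of the 4, with 44418 occupied windows against 64880 to 71274.

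The HB libraries were outside the rule. The HB FT library occupied 36 of the 1527 windows (2.36%) and the HB Sham library 17 (1.11%), with lists of 77887 and 10363 occupied windows.

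Chromosome X was outside the rule as well. There 22 windows met the same criteria, of 1312 occupied in at least 3 LC libraries, and 18 of the 22 were occupied in 3 or 4 PAG libraries.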

How the results depend on the processing

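The number of LC-rule windows, 1527, was 1803 at 250 bp, 1133 at 750 bp, 1365 at a −log10 p of at least 6, 1730 with equal-size lists and 1505 with HB kept. It was 10 with at most 0 other libraries, 4790 with at most 10, 457 with all 4 LC libraries, 92 with 5 kb windows and 4237 with PAG not counted among the other libraries (added after seeing the data). Leaving out each LC library and asking for the other 3 gave 466 to 1148. The share of windows in 3 or 4 PAG libraries, 87.8%, was 87.2% to 95.8% under 5 added alternatives, 89.6% to 95.7% with 1 LC library left out, and 78.1% with at most 4 other libraries. In the split libraries LC ranked first (p = 0.0476, exact permutation) in 4 settings. With 0 other libraries allowed among the choosing libraries these were 29.2% of 12 windows chosen in FT and 28.1% of 16 chosen in replicate 2, while windows chosen in Sham (12.1%) or replicate 1 (13.6%) stayed at 0.0952. With 1 measured LC library they were the upper ends of 46.2% to 83.8% (chosen in FT) and 71.3% to 89.6% (chosen in replicate 2), and the lower ends stayed at 0.0952. The p ran to 0.143 over the settings. The brainstem difference was 22.5 to 26.8 points with other limits, lists or left-out replicates, at 5.89 per 1000 occupied windows and with the replicate block (24.9 points), and was 4.42 without PAG and 0.283 without PAG and Raphe FT. On split libraries it missed the threshold without PAG when chosen in Sham (15.9 points) and without PAG and Raphe when chosen in Sham (0.0528) or replicate 2 (0.848). FT minus Sham outside LC was 0.821 points with equal-size lists, 0.0677 per 1000 occupied windows, 1.37 to 2.32 without 1 replicate of a treatment, and 1.85 with the replicate block. On split libraries with equal-size lists it was 1.29 points (chosen in replicate 1) and 0.804 (chosen in replicate 2). Without PAG and Raphe it was 0.426 points (chosen in replicate 1) and -0.127 (chosen in replicate 2). In LC the difference was -20.1 points with equal-size lists, -19.3 at the stricter p, -30.5 to -3.76 without 1 library and -17.1 with the replicate block. The replicate block moved no value by over 1.5 times. The cause of these changes was not tested, apart from caps and left-out libraries, which change the windows by construction.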
